A study of Arabidopsis thaliana with 9 samples.

Results

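ECS1 (locus AT1G31580, on chromosome 1 of the TAIR10.1 assembly of Arabidopsis thaliana) is 1 gene of the 13286 that the platform annotation names with a probe set of a single gene, and 1 probe set measures it among 22746 probe sets other than controls. The gene was taken for its signal in the 3 genotypes, its rank by signal and the F1 level against the mid-parent value, so these values are given as a description and carry no test. Signals came from 1-colour Affymetrix arrays of rootless seedlings at 10 DAS in the labels' unit, grown at 22 degrees with a photoperiod of 16 h and 8 h. The groups were the F1 hybrid of Col and C24, the accession C24 and the accession Col, each with 3 biological replicates on 1 array apiece, which makes 9 arrays. The labels give no transgene or treatment for any group, and they do not give the direction of the cross or the number of plants in a sample.

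ECS1 encodes a small secreted protein of the cell wall. The gene is known as one that pathogens induce in leaves and as one expressed in some accessions of the species and not in others, from which it takes its name. Secreted defence proteins of plants act outside the cell, where many bacteria and fungi grow, and salicylate and jasmonate are the hormones that control most of them. In an F1 hybrid each parent gives 1 copy of the gene. The mid-parent value, the mean of both parents, is the transcript level that copies acting independently would give.

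The ECS1 signal was high in F1 and Col and more than 100-fold lower in C24. After quantile normalization, which gives all arrays the same distribution of signals, ECS1 stood at 3518, 3033 and 3597 on the F1 arrays, at 14.9, 16.1 and 17.6 on the C24 arrays, and at 5102, 4826 and 3337 on the Col arrays (replicates 1, 2 and 3 in each case, arbitrary signal units). All 3 C24 arrays lay far below every F1 and Col array, while the F1 and Col arrays overlapped, since Col replicate 3 was dimmer than F1 replicates 1 and 3. The deposited values showed the same, with 3672, 3024 and 2671 in F1, 13.9, 15.9 and 15.3 in C24, and 4600, 4450 and 3579 in Col. There too 1 F1 array, replicate 1, was brighter than 1 Col array, replicate 3.

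The normalized group means were 3383 ± 305 in F1, 16.2 ± 1.33 in C24 and 4422 ± 949 in Col (SD, n = 3 each). The order of the means was therefore Col, F1, C24. The F1 and Col arrays overlapped after normalization and in the deposited values, and the difference between F1 and Col was not tested. In a bulk sample, fewer cells with the transcript and less transcript per cell cannot be told apart.

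**Figure D1:**
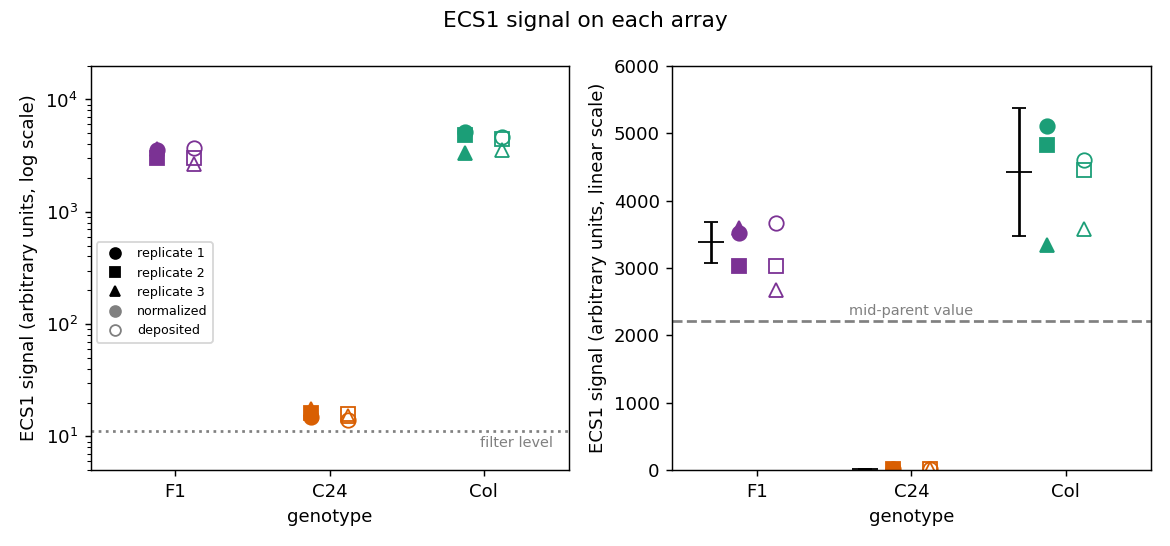
ECS1 signal (arbitrary units) on each of the 9 arrays for F1, C24 and Col, on a log scale at left and a linear scale at right. Filled symbols are normalized and open symbols deposited values, shapes mark the replicate number, black marks at right give the normalized mean ± SD (n = 3), the dashed line is the mid-parent value and the dotted line is the level under which probe sets were not tested. The C24 arrays lie at 14.9 to 17.6 and all F1 arrays lie above the mid-parent value of 2219.

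Between the parents, the log2 difference of ECS1, C24 minus Col, was -8.07 ± 0.17 (standard error from limma's fit to all 15922 tested probe sets). The C24 mean was 0.366% of the Col mean, and only 1 of the tested probe sets had a lower log2 difference. That probe set names AT1G76960, at 0.497 ± 0.199 in C24 and 348 ± 42.2 in Col, so its difference rests on a C24 signal below the floor of 1 that was set before log2 was taken. With that floor, no probe set can fall below Col by more than the log2 of its own Col signal. This order therefore favours bright probe sets. Taken within each replicate number, C24 was below Col by a log2 of -8.42, -8.23 and -7.57. Non-overlapping arrays with the lower signals in C24 were found for 12.3% of all tested probe sets. The samples used here carried no detection calls, so the C24 signal was set beside control probe sets, chosen after their values had been seen. The deposited ECS1 signals of 13.9 to 15.9 in C24 were above the 3 probe sets for a bacterial trp gene, which lay between 0.0951 and 6.06 on the same arrays, and below the 6 for the bacterial bioB gene that is added to the hybridisation mix, which lay between 52.2 and 97.4.

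Probe sets of this array were designed on the Col sequence, and a C24 transcript of another sequence can bind them less. For ECS1, less transcript and less binding cannot be told apart in these data. The actin controls of the array, also chosen after their values had been seen, differed between the 3' end and the middle, the only positions taken. The first probe set for the 3' end of actin had deposited signals of 1050 ± 81.7 in F1, 141 ± 29.995 in C24 and 1256 ± 114 in Col (SD, n = 3 each), so the C24 mean was 11.2% of the Col mean. The probe set for the middle of actin in the same series was at 980 ± 23.3 in F1, 889 ± 120 in C24 and 948 ± 141 in Col, with overlapping arrays. In a second series the C24 mean was 12.8% of the Col mean at the 3' end and 60.8% in the middle. The F1 means at the 3' end were 83.6% and 83.2% of the Col means. The ECS1 mean on the same deposited scale was 15.02 ± 1.029 in C24 and 4210 ± 551 in Col, a wider gap than in either 3' actin probe set. The 3' probe sets for GAPDH gave C24 means of 102% and 119% of Col, and those for ubiquitin 99.5% and 85.8%. ECS1 is measured by a single probe set, so no such split can be looked for within the gene, and the part of probe sequence in its signal was not tested.

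**Figure D2:**
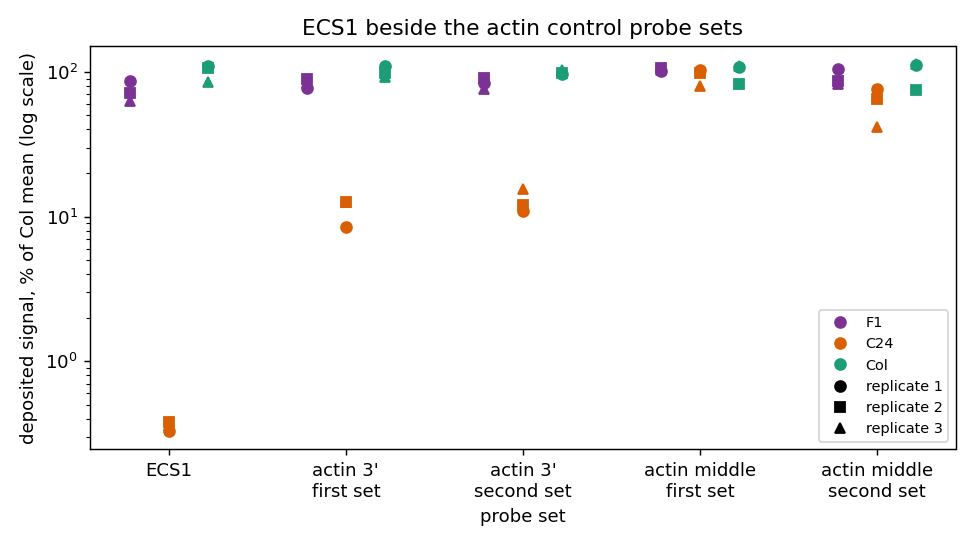
Deposited signal of ECS1 and of 4 actin control probe sets as a percentage of the Col mean, on a log axis, for each array of F1, C24 and Col, with shapes marking the replicate number. C24 arrays of the 3' actin sets average 11.2% and 12.8% of Col, those of the middle sets 93.7% and 60.8%, and those of ECS1 lie below 1%.

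In the F1, ECS1 was nearer to Col than to C24. The log2 difference was -0.37 ± 0.17, F1 minus Col, and 7.71 ± 0.17, F1 minus C24 (standard errors from the same fit). The F1 mean was 76.5% of the Col mean. Within replicate numbers the F1 array was at 68.9%, 62.9% and 108% of the Col array after normalization and at 79.8%, 68.0% and 74.6% in the deposited values. The value of 108% belongs to replicate 3, where normalization multiplied the F1 signal by 1.347 and the Col signal by 0.932. F1 replicate 3 had the dimmest top signal of the 9 deposited arrays, at 4551. Leaving out single arrays gave log2 differences between F1 and Col of -0.54 (without Col replicate 3) to -0.25 (without Col replicate 1). Among all tested probe sets 1599 had a lower log2 difference of F1 minus Col than ECS1, while none of the other 15921 had a higher one of F1 minus C24. The floor of 1 limits F1 minus C24 to the log2 of a probe set's own F1 signal, which favours bright probe sets. Non-overlapping arrays with higher signals in F1 than in C24 were found for 8.94% of tested probe sets, and lower signals in F1 than in Col for 7.6%.

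Set against the parents together, the F1 mean of 3383 was 1.52-fold the mid-parent value of 2219, a log2 difference of 0.61 ± 0.17 (standard error by the delta method). Each F1 array lay above this value, as did all 3 F1 arrays for 13.1% of tested probe sets. Within replicate numbers the F1 array was 1.37, 1.25 and 2.14 times its own mid-parent value after normalization, and 1.59, 1.354 and 1.49 times in the deposited values. The ratio was thus above 1 at each replicate number on both scales, with replicate 3 the highest on 1 scale and replicate 1 on the other. The numbers were not taken as pairs and both scales hold the same arrays, so these ratios are a description and not separate support. As C24 contributed so little, the mid-parent value was nearly the same as the Col mean divided by 2, which is 2211. These are ratios of signal, and whether signal is proportional to transcript at this brightness was not tested.

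On a linear scale where 0 is the Col mean and 1 the C24 mean, the F1 lay at 0.24 for ECS1. Replicate numbers taken singly gave 0.31, 0.37 and -0.08 after normalization, the last from the F1 array that was brighter than its Col array, and 0.20, 0.32 and 0.26 in the deposited values. The other 478 probe sets that were at least 2-fold lower in C24 than in Col and passed the test had a median position of 0.47 with quartiles of 0.33 and 0.59, and 66 of them (13.8%) had a position at or below that of ECS1, which includes positions below 0, where F1 was above Col. Among the 29 of these with a Col mean of at least 1000, the median was 0.39 and 5 had a position at or below that of ECS1. A narrower set, with a log2 difference of -5 or lower, held 13 other probe sets with positions between 0.05 and 0.89. Only 1 of them, which names AT3G22240, was nearer to Col than ECS1. Both actin 3' controls lay at 0.19 in the deposited signals. These sets were defined on the same arrays as ECS1, so the comparison is a description.

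**Figure D3:**
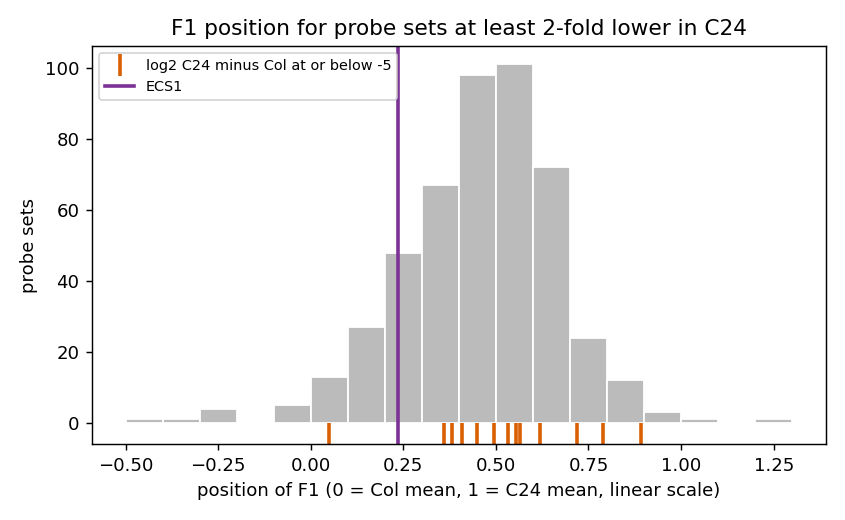
Histogram of the position of F1 between Col (0) and C24 (1) on the linear scale, for 478 probe sets that were at least 2-fold lower in C24 and passed the test, with the number of probe sets on the vertical axis. The purple line marks ECS1 at 0.24 and the orange ticks the 13 other probe sets with a log2 difference of -5 or lower, 1 of which lies left of ECS1.

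By rank of signal, where 1 is the brightest of the 22746 probe sets, ECS1 stood at 105, 170 and 98 on the F1 arrays, at 15233, 15015 and 14769 on the C24 arrays and at 28, 38 and 127 on the Col arrays. On the F1 arrays 99.3% to 99.6% of the probe sets were dimmer than ECS1, on the C24 arrays 33.0% to 35.1% and on the Col arrays 99.4% to 99.9%. These are ranks of brightness, since probe sets differ in how well they bind, and they do not rank amounts of transcript. Ranked by group means, ECS1 was at 115 in F1, 15021 in C24 and 51 in Col. Of the 100 brightest probe sets in Col, 86 were also among the 100 brightest in F1 and 84 among those in C24. Of the same 100, ECS1 was the only probe set beyond rank 1000 in C24, where the next lowest stood at 216.

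The genes with the pattern nearest to that of ECS1 were sought by the Euclidean distance between profiles over the 9 arrays, each expressed as log2 signal minus its own Col mean, among 8779 other tested probe sets that name 1 gene. The nearest was AT1G23960, at a distance of 1.32 with a Pearson r of 0.99. Its signal was 172 ± 28.6 in F1, 1.36 ± 0.415 in C24 and 277 ± 43.2 in Col (SD, n = 3 each), and its F1 mean was 61.9% of its Col mean. AT4G19500, a gene of the NLR family of intracellular immune receptors, followed at a distance of 2.13, with an F1 mean at 47.1% of Col. AT1G76960 was next, at 2.64, and its F1 mean was 28.1% of Col, the lowest of the 6. QQS, an orphan gene that affects starch content in leaves, came after it at 3.13, with 59.7%. AT3G22240, a gene of a small cysteine-rich membrane peptide, lay at 3.44, with 95.01%, and AT5G45500 at 3.45, with 64.5%. All C24 signals of AT4G19500 (mean 0.843) and AT1G76960 (mean 0.497) were below the floor of 1, so their distances depend on that floor. AT1G23960 and AT5G45500 each had a C24 array below it, at 0.948 and 0.431.

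Of these 6 genes, AT3G22240 alone had a Col mean above 1000. Its signal was 1103, 2023 and 3583 on the F1 arrays, 17.9, 41.7 and 29.2 on the C24 arrays, and 1634, 2866 and 2562 on the Col arrays. Its F1 arrays were uneven, at 2236 ± 1254, where those of ECS1 were at 3383 ± 305 (SD, n = 3 each). ECS1 and AT1G76960 had the lowest C24 signals relative to Col among the 7 genes, with log2 differences of -8.07 and -8.44. A probe set that was not matched to a single gene was nearer to ECS1 than any of the 6, at a distance of 1.07.

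By Pearson r alone, which ignores the size of the change, the highest genes not already given were AT2G33220 (r = 0.997), scpl42 (0.995), ETFBETA (0.990) and AT1G66660 (0.988), each over 9 arrays that form 3 groups. A further 8 probe sets that were not matched to a single gene had a higher r than AT1G66660. AT2G33220 encodes a subunit of mitochondrial complex I, scpl42 a serine carboxypeptidase-like protein and ETFBETA a subunit of the mitochondrial electron transfer flavoprotein. AT2G33220 had a signal of 398 ± 35.3 in F1, 41.9 ± 1.62 in C24 and 470 ± 29.3 in Col, and ETFBETA 185 ± 19.3 in F1, 37.9 ± 7.33 in C24 and 205 ± 32.4 in Col. Their log2 differences, C24 minus Col, were -3.49 and -2.45, smaller in size than that of ECS1. With 3 groups and F1 near Col, any gene low in C24 alone gives a high r, so r says little beyond the group means.

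**Figure D4:**
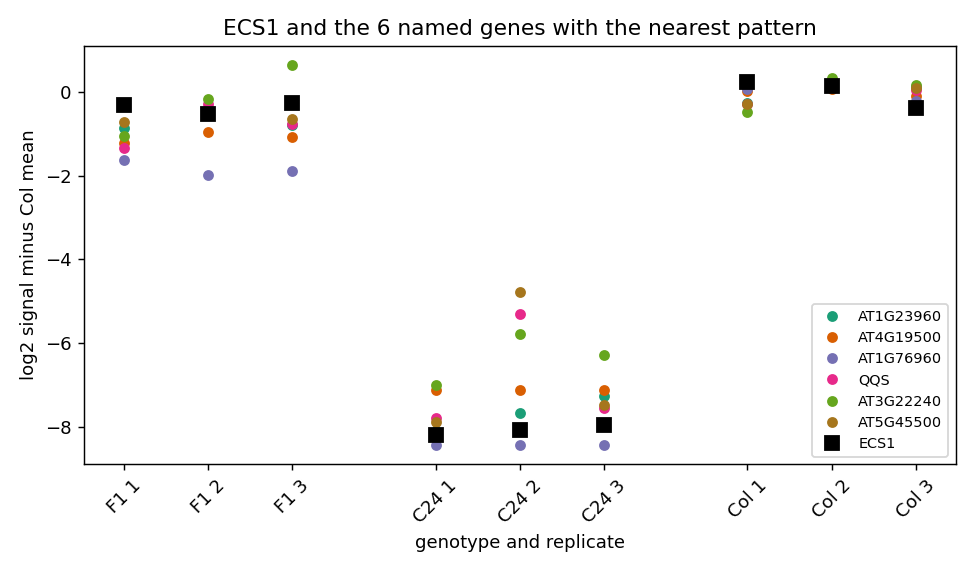
Log2 signal minus the gene's own Col mean on each of the 9 arrays, by genotype and replicate number, for ECS1 (black squares) and the 6 named genes with the smallest distance to it (coloured circles). ECS1 lies near -8 on the C24 arrays and between -0.52 and -0.27 on the F1 arrays.

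None of the 12 tested neighbours of ECS1 on the chromosome differed between C24 and Col as far as ECS1. Only 1 of all tested probe sets had a lower log2 difference than ECS1, so nearly any set of genes would fall short of it. Signals were also set to at least 1, so a gene needs a Col signal of about 269 to fall as far as ECS1. Of the 12, only AT1G31690 (378) and AT1G31780 (272) had Col means above this, so the others could not have reached it. No tested neighbour was nearer than 5 loci on the side of lower coordinates or 8 on the other. Of the 60 annotated loci nearest to it, 30 on each side, 28 had a probe set that names them and 12 passed the filter on dim signals. In C24 against Col, 1 of the 12 was higher and 2 were lower (limma, Benjamini-Hochberg adjusted p under 0.05 over all tested probe sets), where 8.47% of all probe sets tested were called, 3.56% higher and 4.91% lower. The median log2 difference of the 12 was 0.11, with a range of -1.28 to 1.07, beside a median of 0.03 over all tested probe sets. In F1 against Col 0 of 12 were called in limma, where 0.509% of all were called. In F1 against C24 0 of 12 were called in limma, where 2.08% of all were called. These shares are for the adjusted p. An unadjusted p under 0.05 was seen for 1 of the 12 in F1 against Col and for 5 in F1 against C24. The share of all tested probe sets at that unadjusted threshold was not counted, so these 2 numbers have no background here. The neighbour AT1G31440 had an adjusted p of 0.0512 in limma in F1 against C24. It was called there with the deposited scaling (adjusted p = 0.0152) and without F1 replicate 3.

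AT1G31550, a gene of a GDSL-type lipase, was the nearest tested neighbour on the side of lower coordinates, 5 loci away. It ran against ECS1, at 238 ± 27.9 in C24 and 114 ± 21.7 in Col (log2 difference 1.07 ± 0.19, adjusted p = 0.00757), with 149 ± 25.5 in F1. AT1G31440, 17 loci away on the same side, encodes a protein with an SH3 domain and was at 63.2 ± 1.69 in C24 and 154 ± 21.1 in Col (log2 difference -1.28, adjusted p = 0.00254). AT1G31850, 30 loci away on the other side, encodes a methyltransferase and was at 122 ± 12.98 in C24 and 209 ± 15.2 in Col (log2 difference -0.77, adjusted p = 0.00837). Without replicate 1 of every group, AT1G31550 and AT1G31850 missed the threshold (adjusted p = 0.0696 and 0.0802 in limma). AT1G31440 passed in limma without them.

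The remaining neighbours nearest to ECS1 were not called. On the side of lower coordinates AT1G31500 was at 115 ± 11.2 in C24 and 107 ± 14.4 in Col, and AT1G31460 at 40.9 ± 1.25 in C24 and 36.9 ± 5.99 in Col. On the other side AT1G31690 and AT1G31710, both genes of copper amine oxidases, were at 362 ± 69.4 and 204 ± 26.6 in C24, against 378 ± 64.3 and 148 ± 29.95 in Col. AT1G31730, a gene of an adaptor protein subunit, was at 248 ± 39.5 in C24 and 210 ± 59.6 in Col. AT1G31690 and AT1G31710 each had a dimmer second probe set, with log2 differences, C24 minus Col, of -1.63 and -0.64 that were not called (adjusted p = 0.334 and 0.322 in limma). For AT1G31710 the brighter probe set gave 0.48, so its 2 probe sets differed in sign.

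**Figure D5:**
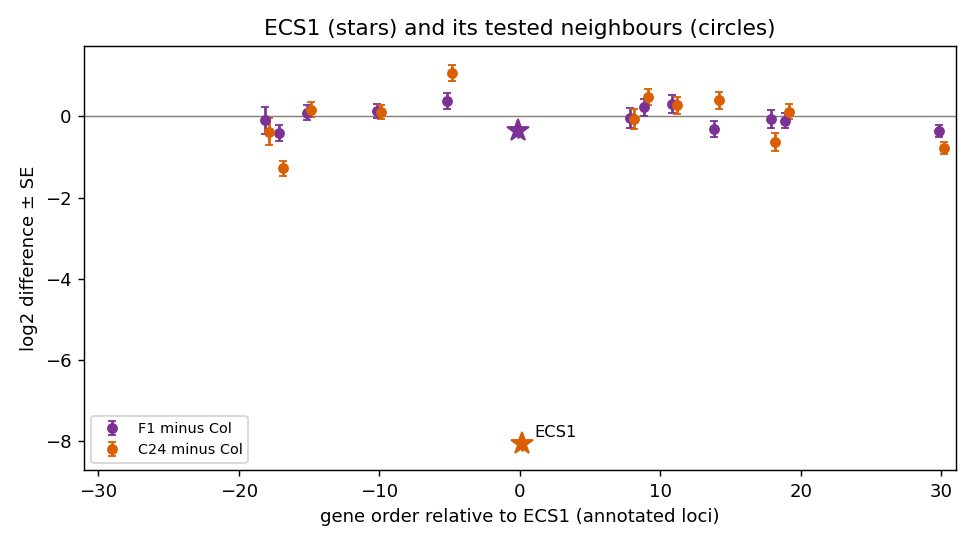
Log2 difference with its standard error, F1 minus Col in purple and C24 minus Col in orange, for ECS1 (stars) and its 12 tested neighbours (circles), placed by gene order relative to ECS1. ECS1 lies at -8.07 in C24 minus Col, while its neighbours lie between -1.28 and 1.07.

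As ECS1 is known as a pathogen-induced gene, other defence genes were set beside it. Of 79 loci in lists of salicylate, jasmonate and ethylene, and pattern-triggered genes, 13 had a probe set that names them and 11 passed the filter. In C24 against Col, 4 of the 11 were higher and 0 lower in limma, the opposite direction to ECS1, where 3.56% of all tested probe sets were called higher, and the median log2 difference of the 11 was 0.64 beside 0.03 over all tested probe sets. Those called were THI2.2, a gene of a secreted antimicrobial thionin, CHI (AT2G43570), a chitinase gene, GRX480, a glutaredoxin gene of the salicylate response, and AT5G55450, a lipid transfer protein gene. THI2.2 was at 1994 ± 239 in C24 and 125 ± 28.1 in Col (log2 difference 4.01, adjusted p = 5.6e-06), and its F1 mean of 1214 ± 322 was also higher than Col (log2 difference 3.27, adjusted p = 0.000137), the only call of the 11 in F1 against Col, where 0.509% of all tested probe sets were called.

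CHI was at 14.4 ± 2.77 in F1, 148 ± 55.4 in C24 and 13.3 ± 1.26 in Col, so that in C24 against Col it changed in the opposite direction to ECS1 (log2 difference 3.39, adjusted p = 0.000112 in limma), and it was the only call of the 11 in F1 against C24, where 2.08% of all tested probe sets were called. GRX480 was at 53.7 ± 15.02 in C24 and 13.5 ± 0.297 in Col (log2 difference 1.95, adjusted p = 0.00338). AT5G55450 was at 856 ± 215 in C24 and 197 ± 22.6 in Col (log2 difference 2.09, adjusted p = 0.0203). Its call was lost without any 1 Col array, without C24 replicate 1 or 2, without replicate 1 of every group and with no filter on dim signals (adjusted p up to 0.0781 in limma). The pattern-triggered genes BIK1, WRKY22, WRKY53 and EFR had log2 differences, C24 minus Col, of -0.50 to 0.83 and were not called.

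Of 21 genes of structural cell wall proteins, 1 was named by a probe set. HRGP1, an extensin gene, was at 37.8 ± 9.63 in F1, 34.1 ± 8.61 in C24 and 37.4 ± 6.81 in Col and was not called in any of the 3 comparisons (adjusted p = 0.818, C24 against Col, in limma).

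The tissue was checked with 5 of 16 leaf markers and 3 of 10 root markers that a probe set names. The summed leaf marker signal was 20286 to 21527 in F1, 21377 to 22183 in C24 and 21357 to 22331 in Col, and RCA, the gene of Rubisco activase, was at 5651 ± 204 in F1, 5583 ± 244 in C24 and 5817 ± 470 in Col. The summed root marker signal was 553 to 834 in F1, 1033 to 1850 in C24 and 267 to 336 in Col. PYK10, a beta-glucosidase gene, made up most of it, while EXPA7 and EXPA18, expansin genes of root hairs, were at 8.29 ± 2.74 and 17.3 ± 5.37 in F1, 2.30 ± 1.16 and 9.60 ± 3.00 in C24 and 8.21 ± 5.46 and 19.9 ± 6.69 in Col. The root marker sum, mostly PYK10, was thus highest where ECS1 was lowest, while EXPA7 and EXPA18 also had their lowest means in C24. In C24 against Col, PYK10 was called higher (adjusted p = 0.000241 in limma), where 3.56% of all tested probe sets were. EXPA18 was not called (adjusted p = 0.122 in limma), and EXPA7 was below the filter on dim signals. The marker means therefore did not go 1 way, though only PYK10 was called. The part of root tissue in the ECS1 signal was not tested. Replicate 1 of every group stood apart on the second principal component of the tested probe sets (19.4% of the variance), at 29.4 to 34.4 against -31.4 to -4.87 for the other arrays. Without replicate 1 of every group, the ECS1 log2 difference was -7.88, C24 minus Col, and 0.70, F1 over the mid-parent value.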

How the data were processed

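The authors deposited 1 linear signal intensity for each probe set on each array. Per the submitters' processing notes they used GCOS, in a version not given in the sources used here. Trimmed by 2% at each end, every array had a mean of 150.01 to 150.02, and signals ran from 0.0104 to 9775. Since median log2 signals spanned 0.24, over a limit of 0.2, the arrays were quantile normalized without the 64 control probe sets, set to at least 1 and log2 transformed. Dim probe sets, in the lowest 30% by mean log2 signal (below about 11.1), were left out, leaving 15922 of 22746. One limma 3.58.1 fit in R 4.3.3 (lmFit, eBayes with a trend, 1 mean per group, Benjamini-Hochberg adjustment, threshold 0.05) gave all contrasts. It was tested on simulated data. Genes were named through the platform annotation, where 13513 probe sets name 1 gene, and 13436 matched a locus of the TAIR10.1 table by Entrez number. A gene with several probe sets was represented by the brightest.

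ECS1 and the gene lists were chosen with earlier results of these data known. Beside ECS1, the genes named were the 6 of smallest distance and the next 4 of highest r, the 3 nearest tested neighbours on each side, and up to 4 called genes of each list; other called neighbours and list members whose values were seen first are also given. The alternatives were other scalings, a floor of 16, other filters, no trend, replicate number as a block, each array left out and, added after seeing the data, replicate 1 of every group left out. With 3 arrays a group, precision is limited.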

Additional observations from a re-analysis of the deposited data

How the results depend on the processing

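The 3 log2 differences, the mid-parent difference and the position of ECS1 moved by less than the spread between replicates under the other scalings. The same held for them with a floor of 16 and with each array left out, and for the 3 mean ranks with each array left out. The mean ranks could not move under the other scalings, which keep the order of probe sets within an array. The mid-parent difference was 0.61 in log2, 0.56 with the deposited scaling and 0.59 with a common median, and 3.67 when the mid-parent value was the mean of both parents' log2 values. Ranked only among probe sets naming 1 gene, ECS1 had a mean rank of 32.3 in F1 against 124.3 among all, 8216 in C24 against 15006 and 16.7 in Col against 64.3. With arrays left out, C24 minus Col ran from -8.24 to -7.88, F1 minus Col from -0.54 to -0.25, F1 minus C24 from 7.60 to 7.78, the mid-parent difference from 0.46 to 0.72 and the position from 0.17 to 0.31. The mean ranks ran from 101.5 to 137.5 in F1, from 14892 to 15124 in C24 and from 33 (without Col replicate 3) to 82.5 in Col. The common median moved the median log2 difference of all probe sets, C24 minus Col, to 0.10; relative to it ECS1 was at -8.09.

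With replicate number as a block the ECS1 differences were again -8.07, -0.37, 7.71 and 0.61. In a balanced design, with every replicate number in every group, the block cannot move them, so this is not a check. The standard error of the 3 log2 differences between groups was 0.176 with the block and 0.170 without. Same-numbered arrays of different groups correlated at 0.01 to 0.49 in their deviations from group means, not all above 0.1, and not every array correlated best with its own number, so the numbers were not taken as pairs; 1735, 120 and 448 probe sets were called with the block against 1348, 81 and 331 without, for C24 and F1 set against Col and for F1 set against C24. Of the neighbours, 1 was called in F1 against C24 with the block, with the deposited scaling and without F1 replicate 3, where 0 were otherwise; it was AT1G31440. In C24 against Col 1 to 3 neighbours were called with arrays left out. Of the defence genes, 2 were called in C24 against Col and 0 in F1 against C24 with the filter at the 50th percentile, which left out CHI and GRX480; with arrays left out the counts were 3 to 4 and 1 to 2, with 2 in F1 against C24 without F1 replicate 3.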

Other observations

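The order of F1 and Col by the spread of ECS1 depended on the scaling. After normalization its SD of log2 signal was 0.13 in F1 and 0.33 in Col, where the medians over the 500 probe sets brightest in Col were 0.11 and 0.13. In Col, 94.8% of these 500 probe sets had a smaller SD than ECS1 on the same scale. On the deposited scale the SDs of ECS1 were 0.23 in F1 and 0.20 in Col, and with the arrays scaled to a common median they were 0.31 in F1 and 0.15 in Col, so the order of the 2 genotypes turned. In C24 the SD of log2 was 0.12 after normalization and 0.10 in the deposited values, at signals near 16. The residual SD of ECS1 over all 3 groups was 0.22, beside a median of 0.25 over all tested probe sets.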
